A study of Mus musculus with 20 samples.

Results

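The genes described here are 10 transcription factors that pattern the stroma and the urogenital mesenchyme, Tbx2, Tbx3, Tbx18, Gata6, Gata4, Wt1, Tcf21, Foxd1, Osr1 and Foxl1. They are 10 of the 51826 genes in a table of RNA counts from cultured mouse renal myofibroblasts. They were chosen by their CPM (counts scaled to the size of the library) in these same libraries, by which of them were switched on or off together, so the levels and genotype differences of these 10 genes are given as a description, with no test of the group. All 10 had at least 5 counts in at least 5 libraries, the filter behind the 20407 genes that were compared, although Gata4 had between 0 and 23 counts per library and Tcf21 between 0 and 56.

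Myofibroblasts were grown out of minced kidney tissue of C57BL/6J mice, from wild-type (WT) mice and from littermates homozygous for a knockout of Wwp2 (WWP2-/-), a gene for a ubiquitin ligase. Poly-A RNA of passage 2 cells was sequenced in 4 groups of 5 libraries, which were untreated WT, TGFb1-treated WT, untreated WWP2-/- and TGFb1-treated WWP2-/-. The comparisons ask how loss of WWP2 and the fibrotic cytokine TGFb1 alter the cells. The labels give neither the dose nor the time of TGFb1, which the study states for its cultures and which are not repeated here, and neither the sex nor the age of the mice. By the study's general statement a data point stands for a mouse, or cells of a mouse, where nothing else is said, but the labels tie no library to a mouse, so the spread between libraries may in part be technical. Cells that grow out of a piece of kidney can be of more than 1 origin.

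In the developing kidney, Foxd1 marks the cortical stromal progenitors that give rise to interstitial fibroblasts, pericytes and mesangial cells, and Osr1 marks the earlier intermediate mesoderm. Tbx18 marks the mesenchyme around the ureter, where Tbx2 and Tbx3 act below it, while Tcf21 is active in stroma and podocytes. Wt1 is needed for nephron progenitors and podocytes, Gata4 and Gata6 are zinc finger factors of mesoderm and endoderm, and Foxl1 is a forkhead factor of the mesenchyme of the gut and other organs.

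The libraries held between 47520759 and 73063697 counts. Wwp2 stood between 50.0 and 59.8 CPM in the 10 WT libraries and between 17.0 and 22.7 CPM in the 10 WWP2-/- libraries, so the targeted transcript was lower but still counted in each of the latter. Xist, the noncoding RNA of the inactive X chromosome, was between 33.7 and 291 CPM in 11 libraries and at most 0.12 CPM in the other 9. It was present in 8 of 10 WT libraries and in 3 of 10 WWP2-/- libraries, and genotype was therefore unevenly spread over libraries with and without Xist. In 5 libraries Xist stood beside the Y-linked transcripts Ddx3y, Eif2s3y, Kdm5d and Uty. Whether these 5 hold cells of more than 1 mouse was not tested, so a library may not stand for 1 mouse. The 2 WT libraries without Xist were untreated replicate 4 and TGFb1 replicate 3, and the 3 WWP2-/- libraries with Xist were untreated replicates 1 and 3 and TGFb1 replicate 1. Of these, untreated WWP2-/- replicate 3 and TGFb1 WWP2-/- replicate 1 also stood apart in Acta2, the smooth muscle actin of myofibroblasts, with 38.9 and 50.4 CPM against between 1016 and 3430 CPM in the other 18 libraries. They are called the low-Acta2 libraries below. Of the fibroblast markers, 10 of 10 had a median of at least 1 CPM over the libraries, and Col1a1 was at 703 CPM or more in each. Vim was 985 and 1113 CPM in the low-Acta2 libraries and at 2202 CPM or more in the other 18. Lum (0.0148 to 91.6 CPM), Fap (0.02 to 51.1 CPM) and Thy1 (0.599 to 81.1 CPM) were low in some libraries. The sum of 8 macrophage markers ran from 60.5 to 3918 CPM, the latter in untreated WT replicate 4. The sum of 10 tubular markers ran from 14.8 to 638 CPM, and the part of either in the members' levels was not tested. Pdgfra, a fibroblast receptor, was between 14.4 and 179 CPM in libraries with Xist and between 0.543 and 1.87 CPM in those without, and its part in the members' levels was not tested. Of the markers of other Wt1-expressing or Tbx18-expressing cell types, Nphs1 of podocytes was at most 0.165 CPM, Lrrn4 of mesothelium at most 0.02 CPM, Upk2 and Upk3a of urothelium at most 0.0202 and 0.0155 CPM, and Ren1 of renin cells at most 0.0613 CPM, while Upk3b (0.0168 to 6.22 CPM) and Msln (0.0403 to 5.09 CPM) of mesothelium were higher.

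Per kilobase of exon, the scale on which levels of different genes can be set side by side, Wt1 was the highest of the 10 with a mean of 8.39 ± 3.79 CPM per kb (SD, n = 20 libraries). Osr1 followed at 6.95 ± 2.52 CPM per kb, and the order between these neighbours held in 13 of 20 libraries only. Foxd1 (4.25 ± 3.30), Gata6 (2.99 ± 2.40), Foxl1 (2.76 ± 2.05) and Tbx18 (2.53 ± 1.41 CPM per kb) came next, and each of the first 3 exceeded its next neighbour in only 10 or 11 of 20 libraries, so their order is not set apart from their spread. Tbx3 (1.14 ± 1.89 CPM per kb) and Tbx2 (0.797 ± 0.675 CPM per kb) were lower, again without separation from one another. Tcf21, at 0.176 ± 0.143 CPM per kb, was above Gata4, at 0.0327 ± 0.0333 CPM per kb, in 19 of 20 libraries. Gata4, with a median of 0.0934 CPM, was near the counting floor of 3 counts, which correspond to between 0.039 and 0.0613 CPM, and Tcf21, with a median of 0.404 CPM, reached it in its lowest WWP2-/- libraries only.

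With 1 CPM taken as on, 40 of the 50 pairs of member and library were on in untreated WT cells, 39 in TGFb1-treated WT cells, 37 in untreated WWP2-/- cells and 36 in TGFb1-treated WWP2-/- cells. Gata4 was under 1 CPM in all 20 libraries and Tcf21 in 18. Tbx2 was under 1 CPM in 9 libraries, which were the 9 libraries without Xist. Tbx3 was under 1 CPM in TGFb1 WT replicate 3 alone, the library with the fewest members on, 6 of 10. The other 6 members were at or above 1 CPM in every library and differed by degree.

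**Figure D1:**
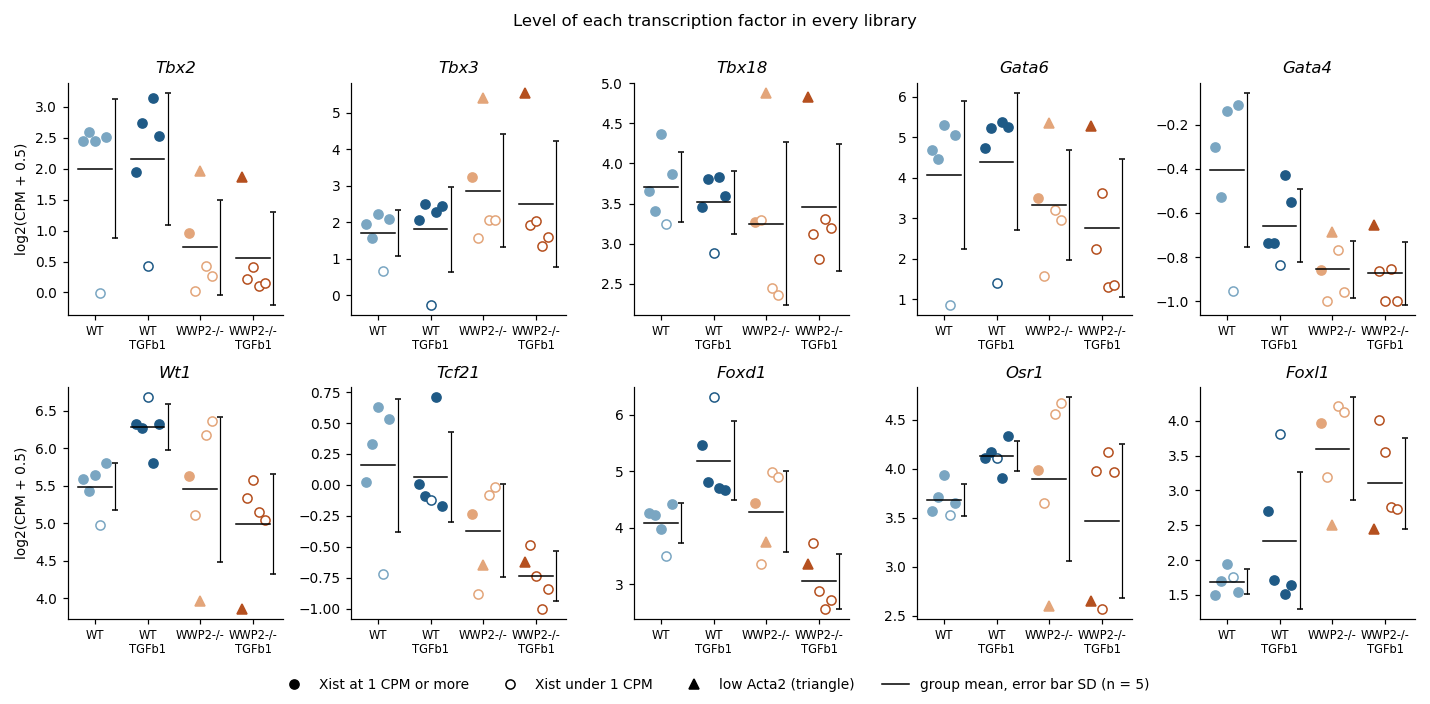
Level of each member in every library, as log2(CPM + 0.5), with libraries grouped by genotype and treatment. Filled symbols are libraries with Xist, open circles those without, triangles the low-Acta2 libraries, the line the group mean and the bar its SD (n = 5). Tbx2 falls into a filled upper and an open lower set, and the triangles lie far above the rest for Tbx3, at 42.0 and 45.7 CPM.

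Tbx2, at chr11:85832551-85841948 on the plus strand (GRCm38), encodes a T-box repressor that holds back senescence and differentiation in mesenchyme. In untreated WT cells its level was 4.95, 5.53, 4.93, 0.497 and 5.21 CPM in replicates 1 to 5, and with TGFb1 it was 3.35, 6.19, 0.838, 8.34 and 5.25 CPM. In untreated WWP2-/- cells it was 1.44, 0.517, 3.40, 0.852 and 0.697 CPM, and with TGFb1 3.15, 0.665, 0.827, 0.575 and 0.607 CPM. The low values in each genotype were all from libraries without Xist. Across the 11 libraries with Xist the range was 1.44 to 8.34 CPM, and across the 9 without it was 0.497 to 0.852 CPM, so these sets did not overlap. Tbx2 was the only 1 of the 10 members of which that was true, against 2.42% of all genes compared. Among libraries with Xist, the 8 WT libraries ranged from 3.35 to 8.34 CPM and the 3 WWP2-/- libraries from 1.44 to 3.40 CPM. Without Xist, WT libraries were at 0.497 and 0.838 CPM and WWP2-/- libraries between 0.517 and 0.852 CPM, so the genotypes lay in the same range there.

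Tbx3, at chr5:119670669-119684724 on the plus strand, is the close paralog of Tbx2 and is coexpressed with it in many mesenchymal tissues. It had the widest range of the 8 members counted in every library, 135-fold, from 0.339 CPM in TGFb1 WT replicate 3 to 45.7 CPM in TGFb1 WWP2-/- replicate 1. In WT cells it stood at 3.40, 2.46, 4.21, 1.10 and 3.77 CPM untreated and at 3.65, 5.17, 0.339, 4.34 and 4.98 CPM with TGFb1. The lowest value of each WT group was that of the library without Xist. In WWP2-/- cells it was 8.98, 2.47, 42.0, 3.67 and 3.65 CPM untreated and 45.7, 3.33, 3.59, 2.05 and 2.55 CPM with TGFb1. The low-Acta2 libraries thus held 42.0 and 45.7 CPM, while the other 8 WWP2-/- libraries lay between 2.05 and 8.98 CPM. Its antisense partner Tbx3os1 was at most 0.657 CPM, and reads of overlapping genes cannot be told apart, since the methods state no strand setting of the counting.

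Tbx18, which encodes the T-box factor of ureteric mesenchyme and of mural cells, was between 8.96 and 20.1 CPM in untreated WT cells and between 6.84 and 13.7 CPM in TGFb1-treated WT cells. Untreated WWP2-/- cells had 9.17, 9.34, 28.9, 4.95 and 4.61 CPM, and treated ones 27.9, 8.21, 6.50, 9.40 and 8.65 CPM. Again the low-Acta2 libraries were above all others, at 28.9 and 27.9 CPM against at most 20.1 CPM. Tbx18 lies at chr9:87702800-87731260 on the minus strand and overlaps D030062O11Rik on the plus strand. The 250 bases before its start, chr9:87731261-87731510 on the minus strand (RefSeq, GRCm38.p6), are shown because Tbx18 is one of the members that were high together in the low-Acta2 libraries, and capitals mark a SMAD motif.
Tbx18 promoter: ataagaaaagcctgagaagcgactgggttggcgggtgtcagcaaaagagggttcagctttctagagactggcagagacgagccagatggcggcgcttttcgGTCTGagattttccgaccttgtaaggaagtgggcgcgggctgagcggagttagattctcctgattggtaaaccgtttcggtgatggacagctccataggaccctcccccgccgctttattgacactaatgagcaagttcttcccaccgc
The letters CAGAC, the core that SMAD proteins of the TGFb1 pathway bind, matched on the opposite strand at position -149 from the start. Either strand of that motif is found in 42.2% of 32851 mouse promoters of the same length, so a match in 1 promoter is common.

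**Figure D2:**
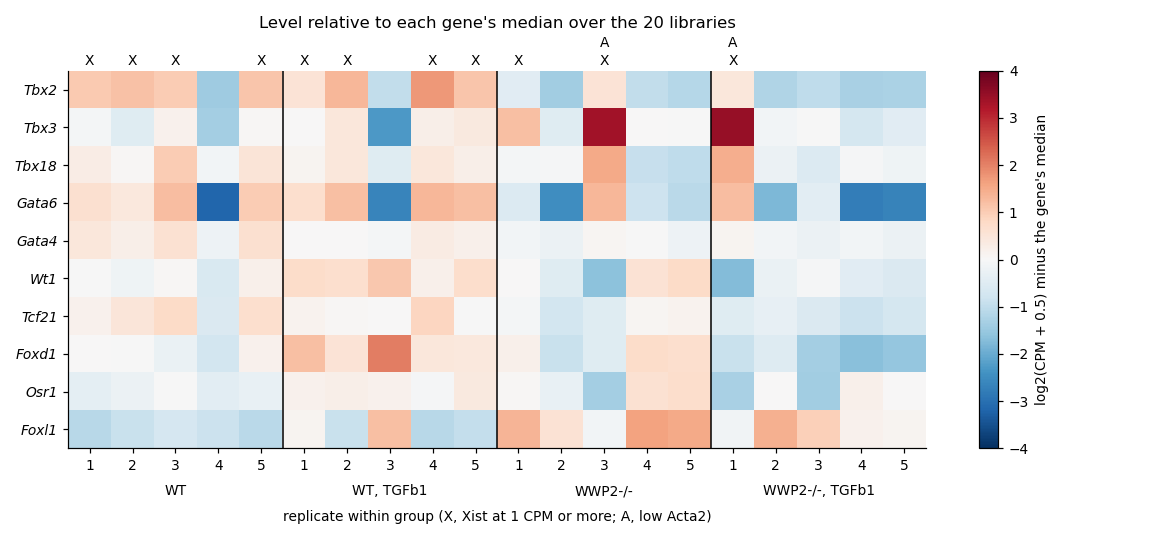
Heat map of log2(CPM + 0.5) of each member minus its median over the 20 libraries, with libraries in columns by group and replicate. X marks libraries with Xist and A the low-Acta2 libraries. Untreated WT replicate 4 and TGFb1 WT replicate 3 are blue for Tbx2, Tbx3 and Gata6, and the columns marked A are red for Tbx3 and Tbx18 and blue for Wt1 and Osr1.

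Gata6, a zinc finger factor of mesodermal mesenchyme, was at 25.0, 21.3, 38.5, 1.32 and 32.6 CPM in untreated WT cells and at 25.8, 37.2, 2.14, 40.6 and 37.3 CPM in TGFb1-treated WT cells. The 2 values under 3 CPM were again those of the WT libraries without Xist. In WWP2-/- cells it was at 10.7, 2.45, 40.4, 8.75 and 7.29 CPM untreated and at 38.1, 4.19, 11.9, 1.94 and 2.06 CPM with TGFb1. Only the low-Acta2 libraries reached the level of most WT libraries, and untreated WWP2-/- replicate 1, which held both Xist (33.7 CPM) and Y-linked transcripts (209 CPM), was in between. By Xist, Gata6 ranged from 10.7 to 40.6 CPM with it and from 1.32 to 11.9 CPM without it, a small overlap. Gata4, its paralog, was at most 0.425 CPM. Its WT libraries held between 0.0155 and 0.425 CPM untreated and between 0.0599 and 0.242 CPM with TGFb1, and WWP2-/- libraries held at most 0.121 and 0.135 CPM, levels at which 3 counts matter. Of the other GATA genes, Gata2 and Gata3 had means between 24.3 and 56.0 CPM and between 2.97 and 5.91 CPM in the 4 groups, whereas Gata5 was at most 0.02 CPM.

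Wt1, at chr2:105126529-105173616 on the plus strand, encodes the zinc finger factor named after Wilms tumour. Untreated WT cells held 47.5, 42.5, 49.4, 31.1 and 55.6 CPM, and with TGFb1 79.8, 76.6, 102, 55.5 and 79.6 CPM. The highest value of all 20 came from TGFb1 WT replicate 3, the library in which Tbx2, Tbx3 and Gata6 were low. In untreated WWP2-/- cells the values were 49.0, 34.2, 15.2, 71.9 and 81.9 CPM, and with TGFb1 14.0, 39.9, 47.1, 35.0 and 32.3 CPM. The low-Acta2 libraries had the lowest Wt1 of all, 15.2 and 14.0 CPM against at least 31.1 CPM in the other 18, the opposite of their Tbx3 and Tbx18. The antisense RNA Wt1os, which lies 19 bases from Wt1, had between 0.27 and 2.88 CPM, and its order over the 20 libraries was like that of Wt1 (Spearman rho 0.89). Of the 10 podocyte markers 7 had a median of at least 1 CPM, among them Podxl (2.44 CPM or more) and Synpo (33.5 CPM or more), and the summed level of the 10 ran from 402 to 966 CPM in treated WT and from 209 to 1356 CPM in treated WWP2-/- libraries. Of the 10 mesothelial markers 7 had such a median, with summed levels of 73.5 to 103 CPM and 53.5 to 208 CPM in the same groups. The part of these cell types in the level of Wt1 was not tested.

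Tcf21, a basic helix-loop-helix factor at chr10:22817281-22820174 on the minus strand, was above 1 CPM in only 2 libraries, untreated WT replicate 3 at 1.04 CPM and TGFb1 WT replicate 4 at 1.13 CPM. With TGFb1 it ranged from 0.388 to 1.13 CPM in WT libraries and from 0 to 0.216 CPM in WWP2-/- libraries. Untreated, the ranges were 0.109 to 1.04 CPM and 0.0431 to 0.489 CPM and overlapped. The 250 bases before its RefSeq start hold CAGAC or its reverse at 3 places and 1 GATA motif (AGATAA or TGATAA on either strand, found in 16.6% of promoters).

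Foxd1, at chr13:98354242-98359305 on the plus strand, encodes the forkhead factor of kidney stromal progenitors. In untreated WT cells it was at 18.8, 18.2, 15.3, 10.9 and 20.9 CPM, and in TGFb1-treated WT cells at 43.7, 27.6, 78.8, 25.5 and 24.9 CPM. Every treated WT library was above every untreated one. In WWP2-/- cells it was at 21.2, 9.76, 12.9, 31.2 and 29.5 CPM untreated and at 9.75, 12.8, 6.90, 5.41 and 6.05 CPM with TGFb1, so the order of treated and untreated libraries was turned around, with overlap. Foxd1 gave the largest difference between genotypes among members above 1 CPM in the TGFb1-treated cells, and the 250 bases before its start, chr13:98353995-98354244 on the plus strand (RefSeq, GRCm38.p6), are shown for that reason with the SMAD motif in capitals.
Foxd1 promoter: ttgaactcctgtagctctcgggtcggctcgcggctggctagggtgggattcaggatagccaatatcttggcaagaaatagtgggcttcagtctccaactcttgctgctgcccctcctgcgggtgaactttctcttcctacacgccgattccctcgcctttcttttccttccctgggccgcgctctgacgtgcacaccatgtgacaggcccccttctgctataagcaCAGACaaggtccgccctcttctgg
Its only CAGAC lies at position -24. None of the promoters of Tbx18, Tcf21 and Foxd1 held the T-box motif TCACAC (12.3% of promoters), the forkhead motif TGTTTAC (3.17%), the WT1 motifs searched (2.96%) or the 8-base SMAD palindrome (0.167%), and a promoter sequence was at hand for these 3 of the 10 members.

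Osr1, the odd-skipped factor of intermediate mesoderm, at chr12:9570116-9581500 on the plus strand, had the narrowest range of the 8 members counted in every library, 4.59-fold. WT cells held between 11.1 and 14.8 CPM untreated and between 14.5 and 19.7 CPM with TGFb1. WWP2-/- cells held 15.4, 12.1, 5.56, 23.0 and 24.9 CPM untreated and 5.76, 15.2, 5.43, 17.5 and 15.1 CPM with TGFb1. Both low-Acta2 libraries were under 6 CPM, as was TGFb1 WWP2-/- replicate 3. The related Osr2 was lower, with group means between 0.879 and 1.50 CPM.

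Foxl1, at chr8:121127940-121130644 on the plus strand, lies 9045 bases from Foxc2, a forkhead gene of mesenchyme, and 13.6 Mb from the deleted Wwp2 on the same chromosome. It was at 2.33, 2.76, 3.35, 2.89 and 2.40 CPM in untreated WT cells and at 15.1, 8.64, 5.15, 18.0 and 17.0 CPM in untreated WWP2-/- cells. All 5 WWP2-/- values were above all 5 WT values. With TGFb1 it was at 6.05, 2.78, 13.6, 2.34 and 2.63 CPM in WT cells and at 4.97, 15.7, 11.3, 6.29 and 6.13 CPM in WWP2-/- cells. TGFb1 WT replicate 3 again stood apart, and here it was high. Foxc2 had group means of 22.6 ± 1.26, 40.9 ± 23.0, 61.1 ± 24.5 and 42.1 ± 20.6 CPM (SD, n = 5) in untreated WT, treated WT, untreated WWP2-/- and treated WWP2-/- cells, and its order over the libraries was like that of Foxl1 (rho 0.85). Foxf1, on the same chromosome and a factor of gut and lung mesenchyme, was at 31.7 and 29.6 CPM in the low-Acta2 libraries and at most 5.51 CPM in the other 18. Gm20388 overlaps Foxl1 on the same strand, and reads shared with it cannot be assigned to one of them.

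Some members were high and low in the same libraries, the trait by which the members were chosen, so their likeness is given as a description. Tbx2 and Gata6 were alike (Spearman rho 0.84 over 20 libraries, 0.90 after each group's mean was removed), as were Tbx3 and Gata6 (0.81 and 0.91). Wt1 and Foxd1 were alike (0.87 and 0.69), and Tbx18 and Foxl1 ran opposite to each other (-0.74 and -0.78). For Wt1 and Foxl1 rho was 0.07 over the 20 libraries and 0.81 after the group means were removed. These values describe 20 points that fall into libraries with and without Xist and that share depth and normalization, so they are not independent. The low-Acta2 libraries did not overlap the other 18 in 3 of the 10 members, Tbx3 and Tbx18 above and Wt1 below, and 29.4% of all genes compared were likewise apart in these 2 libraries, which were picked after Acta2 had been seen. In a bulk sample, fewer cells of a type and less RNA per cell cannot be told apart.

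**Figure D3:**
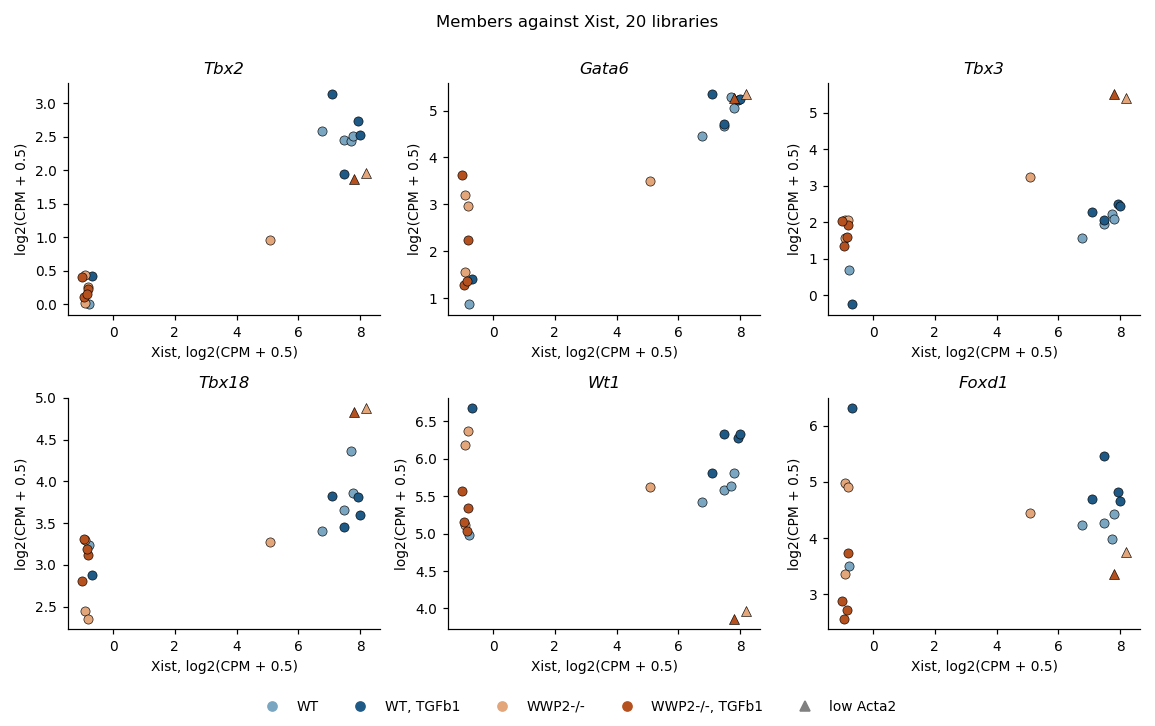
Levels of 6 members against Xist, both as log2(CPM + 0.5), in the 20 libraries, with colours for the 4 groups and triangles for the low-Acta2 libraries. Tbx2 and Gata6 are low in the 9 libraries at the left, where Xist is at most 0.12 CPM, while Wt1 and Foxd1 overlap between left and right.

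With TGFb1, WWP2-/- cells had lower Foxd1 (log2 fold change -2.29, SE 0.38) and lower Wt1 (-1.22, SE 0.36) than WT cells in the fit of all 20 libraries with edgeR's quasi-likelihood test. These 2 of the 10 members had an adjusted P below 0.05, as did 6.07% of all genes, and since the members were chosen on these libraries nothing is read from that count. The call of Wt1, at an adjusted P of 0.0482 in edgeR, was lost in 16 of 20 fits with 1 library left out, with DESeq2's size factors (0.0527), without the filter on low counts (0.0673), with the replicate number as a block (0.0889) and without the 2 WT libraries that lacked Xist (0.0521). For Wt1, Tcf21 and Foxd1 all 5 WWP2-/- values were below all 5 WT values, and the genotypes were apart in this way, in either direction, for 5.67% of all genes. Foxd1 averaged 40.1 ± 23.0 CPM in WT and 8.18 ± 3.07 CPM in WWP2-/- cells (SD, n = 5), Wt1 78.6 ± 16.4 and 33.7 ± 12.3 CPM, and Tcf21 0.577 ± 0.313 and 0.106 ± 0.0832 CPM. For the remaining 8 the log2 fold changes were -2.42 (SE 0.72) for Tcf21, -2.04 (SE 0.71) for Tbx2, -1.48 (SE 0.89) for Gata4, -1.30 (SE 0.93) for Gata6, -0.53 (SE 0.35) for Osr1, 0.11 (SE 0.47) for Tbx18, 0.70 (SE 0.46) for Foxl1 and 1.63 (SE 0.95) for Tbx3. The median over the 10 members was -1.26 beside 0.05 over all genes.

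Because Xist was unevenly spread over the genotypes, the treated libraries were also set side by side within libraries that had it and within those that lacked it. With Xist, Foxd1 was between 24.9 and 43.7 CPM in 4 WT libraries and 9.75 CPM in the 1 WWP2-/- library, and without it 78.8 CPM in 1 WT library and between 5.41 and 12.8 CPM in 4 WWP2-/- libraries. Wt1 was likewise lower in WWP2-/- libraries on both sides, 55.5 to 79.8 against 14.0 CPM with Xist and 102 against 32.3 to 47.1 CPM without. Tcf21 was 0.388 to 1.13 against 0.152 CPM and 0.419 against 0 to 0.216 CPM. For Tbx2, the gap was 3.35 to 8.34 against 3.15 CPM with Xist and 0.838 against 0.575 to 0.827 CPM without. Gata6 showed no such order, with 25.8 to 40.6 against 38.1 CPM and 2.14 against 1.94 to 11.9 CPM. With 1 library on one side, these within-set values carry no replicate error for that side. Both single libraries also stood apart. The WWP2-/- library with Xist was the low-Acta2 replicate 1, and the low-Acta2 libraries had the lowest Wt1 of all. The WT library without Xist was replicate 3, which had the highest Foxd1 and the highest Wt1 of all libraries. Whether the order within these sets comes from genotype was not tested.

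**Figure D4:**
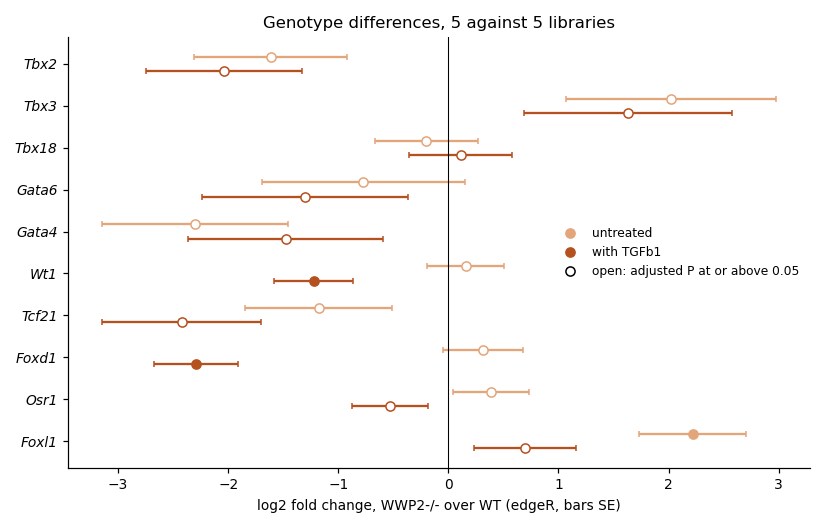
Log2 fold change of WWP2-/- over WT for each member, untreated and with TGFb1, with bars of 1 SE from the fit of all 20 libraries (5 against 5). Filled symbols have an adjusted P below 0.05, which are Foxd1 and Wt1 with TGFb1, below 0, and Foxl1 untreated, at 2.22.

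Without treatment, Foxl1 was the member with the clearest difference, with a mean of 12.8 ± 5.62 CPM in WWP2-/- against 2.75 ± 0.411 CPM in WT cells (log2 fold change 2.22, SE 0.48). It was the 1 of 10 members with an adjusted P below 0.05, where 0.725% of all genes had one, and the 1 whose libraries did not overlap, as for 2.79% of all genes. With Xist, Foxl1 was 2.33 to 3.35 CPM in 4 WT libraries and 5.15 and 15.1 CPM in 2 WWP2-/- libraries, and without it 2.89 CPM in 1 WT library and 8.64 to 18.0 CPM in 3 WWP2-/- libraries. Foxd1 and Wt1, lower in the treated WWP2-/- cells, had log2 fold changes of 0.31 (SE 0.36) and 0.16 (SE 0.35) here. Tbx2 (-1.61, SE 0.70), Gata4 (-2.30, SE 0.85), Tcf21 (-1.18, SE 0.67), Gata6 (-0.77, SE 0.92) and Tbx18 (-0.20, SE 0.47) were below 0, and Tbx3 (2.02, SE 0.96) and Osr1 (0.39, SE 0.35) above. The median over the members was -0.02, beside 0.08 over all genes.

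The direction of several members depended on the libraries that stood apart. Tbx3 had a log2 fold change of 1.63 with TGFb1 when all libraries were used and of -0.36 without the low-Acta2 libraries, and untreated it went from 2.02 to 0.62. Tbx18 with TGFb1 went from 0.11 to -0.46 without these libraries. Gata6 was at -1.30 with TGFb1 and at -2.50 without the low-Acta2 libraries, but at 0.50 with Xist as a covariate, and Tbx2 at -2.04, -2.84 and -0.62 in the same order. Untreated, Gata6 went from -0.77 to 0.77, Tbx18 from -0.20 to 0.13 and Wt1 from 0.16 to -0.33 with Xist as a covariate. Foxd1 with TGFb1 moved little, -2.37 without the low-Acta2 libraries, -1.89 without the 2 WT libraries that lacked Xist and -2.42 with Xist as a covariate. Foxl1 untreated was at 2.40, 2.24 and 1.67 in these 3 fits, and the third of them no longer passed the threshold. With each of the 20 libraries left out in turn, Foxd1 with TGFb1 passed the threshold in 20 of 20 fits, Wt1 with TGFb1 in 4, at log2 fold changes of -1.39 to -1.04, and untreated Foxl1 in 6, at 2.04 to 2.40. Of the 10 members, 4 passed with TGFb1 without the low-Acta2 libraries, as did 17.2% of all genes, 4 without the WT libraries that lacked Xist, as did 16.5%, and 7 without both pairs, as did 32.5%. Leaving out these pairs of libraries was chosen after the counts had been seen, and without both pairs all 8 WT libraries but only 1 of 8 WWP2-/- libraries had Xist, so genotype and Xist cannot be told apart in that fit.

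**Figure D5:**
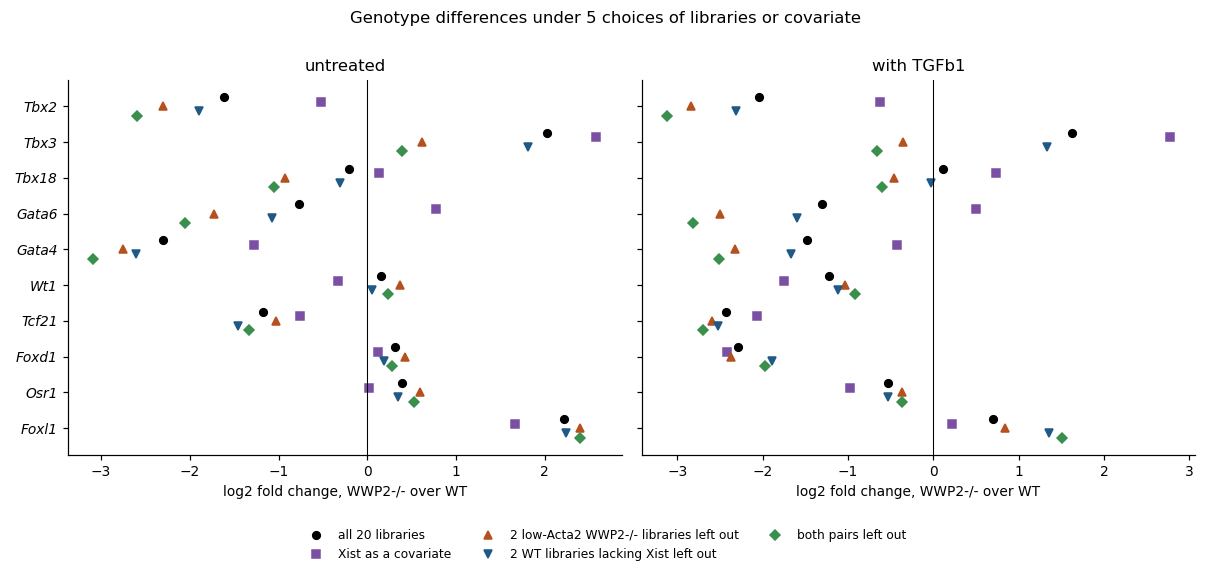
Log2 fold change of WWP2-/- over WT for each member, untreated at the left and with TGFb1 at the right, from all 20 libraries, with Xist as a covariate, and without the libraries that stood apart. Tbx3 with TGFb1 lies on both sides of 0, from -0.66 to 2.77, while Foxd1 with TGFb1 stays between -2.42 and -1.89.

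TGFb1 against no treatment gave no gene with an adjusted P below 0.05 in WT cells (0.0% of 20407) or in WWP2-/- cells (0.0%), and no gene whose response differed between the genotypes (0.0%). At an unadjusted P below 0.05 there were 1397, 713 and 1424 genes in edgeR. Without any difference a share of genes equal to that threshold would pass, so these are not counts of responding genes. DESeq2's Wald test called 27, 49 and 10 genes after adjustment. Foxd1 had the largest response of the members with more than 1 CPM, a log2 fold change with TGFb1 of 1.25 (SE 0.37) in WT cells and of -1.35 (SE 0.37) in WWP2-/- cells, and the difference between these was -2.61 (SE 0.52). Its treated WT libraries did not overlap the untreated ones, the only 1 of 10 members of which that held, as for 1.35% of all genes. No member was apart in WWP2-/- cells, where 0.377% of genes were. Wt1 had 0.80 (SE 0.35) and -0.58 (SE 0.35) and Osr1 0.46 (SE 0.35) and -0.46 (SE 0.35), in WT and WWP2-/- cells in turn. In DESeq2's fit Foxd1 was 1 of the 10 genes whose response differed between genotypes, and it did not pass in edgeR.

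Other transcription factors of mesenchyme and nephron that are related to the members by family or tissue, with some cofactors and antisense RNAs, were taken as a list of 83, of which 64 were compared. With TGFb1, 8 of these 64 differed between genotypes at an adjusted P below 0.05, 5 lower and 3 higher in WWP2-/- cells, beside the 6.07% of all genes, and the median log2 fold change over the 64 was -0.03. Nkx3-2, a homeobox factor of skeletal and visceral mesoderm, was at 1.17, 1.90, 0, 2.42 and 1.96 CPM in treated WT cells and at most 0.0674 CPM in treated WWP2-/- cells (adjusted P = 0.0141 in edgeR), and the WT library at 0 was the one without Xist. Tcf23, a relative of Tcf21, was at 2.70, 1.02, 6.25, 1.29 and 0.653 CPM and at most 0.40 CPM (-3.69, SE 0.79, adjusted P = 0.0138 in edgeR). Gata2, a factor of blood and endothelium that is also active in mesenchyme, was at 61.0, 42.5, 98.1, 39.5 and 39.1 CPM against 36.8, 26.8, 20.9, 16.8 and 20.1 CPM (-1.21, SE 0.26, adjusted P = 0.0142 in edgeR), with no overlap. Foxp2, a forkhead repressor, was at 47.4, 68.3, 1.04, 62.7 and 62.9 CPM against between 1.78 and 5.37 CPM (-3.72, SE 0.86, adjusted P = 0.0182 in edgeR), and its 1 low WT library was the one without Xist. Eomes (1.42, SE 0.33), Foxq1 (2.43, SE 0.65) and Foxl2 (1.59, SE 0.45) were the 3 that rose, named here after their values were seen. These 3 were low in every library, at most 0.825, 1.24 and 1.23 CPM in turn. With Xist as a covariate 5 of the 64 passed, beside 2.67% of all genes, without the low-Acta2 libraries 24, beside 17.2%, and without TGFb1 WT replicate 3 there were 16, beside 13.4%. Untreated, 0 of the 64 passed in edgeR, beside 0.725% of all genes, and DESeq2 called 4, beside 743 of the 20407 genes compared.

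For several genes of this list, as for Tbx2, the libraries with and without Xist did not overlap. The libraries with and without Xist did not overlap for 7 of the 64, namely Tbx15, Zfpm2, Tbx3os1, Nr2f1, Nkx3-2, Ebf2 and Ebf3, where 2.42% of all genes did not, and they are named after their values were seen. For Tbx3os1 and Nkx3-2 the gap lay at the counting floor of 3 counts. Tbx3os1, an antisense RNA, was 0.0605 CPM or more with Xist and at most 0.0431 CPM without. Nkx3-2 was 1.17 to 2.42 CPM in WT libraries with Xist but only 0.039 to 0.101 CPM in WWP2-/- libraries with Xist. Without Xist it was at most 0.0289 CPM. Ebf3, an early B-cell factor family member active in stroma, was between 2.95 and 64.9 CPM with Xist and at most 0.166 CPM without. Zfpm2, the cofactor of GATA proteins, was between 22.2 and 94.5 CPM with Xist and between 3.20 and 18.6 CPM without. Tbx15, a T-box factor of limb and skin mesenchyme, had 4.09 to 22.1 CPM and 0.18 to 1.13 CPM.

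Retinoic acid is made by stromal cells of the kidney and acts on Foxd1-lineage and epithelial cells, and 20 genes of its synthesis, binding and breakdown were compared as a list. With TGFb1, 7 of 20 differed between genotypes, 4 lower and 3 higher in WWP2-/- cells, with a median log2 fold change of -0.23, beside 6.07% of all genes. Aldh1a1, which makes retinoic acid, was at 50.2, 49.2, 23.9, 57.1 and 43.6 CPM in treated WT and at 1.28, 6.34, 4.08, 6.27 and 6.07 CPM in treated WWP2-/- cells (-3.22, SE 0.67, adjusted P = 0.0133 in edgeR), with no overlap. Cyp26b1, which breaks retinoic acid down, had a log2 fold change of -2.70 (SE 0.70), and the receptor Rxra of -0.47 (SE 0.12). Those that fell thus include an enzyme that makes retinoic acid, a receptor and an enzyme that clears it. Aldh1a2 and Rdh10, also of its synthesis, were not among the 7. In treated and untreated libraries with Xist, Aldh1a2 was 18.3 to 89.4 CPM in WT and 25.5 to 211 CPM in WWP2-/- cells. Without Xist it was 136 to 169 and 133 to 313 CPM. Rdh10 was 17.6 to 85.8 and 13.9 to 125 CPM with Xist, and 133 to 245 and 109 to 316 CPM without. The 3 that rose, named after their values were seen, were Dhrs9 (2.28, SE 0.63), Cyp26a1 (2.70, SE 0.76) and Rbp4 (3.42, SE 1.0). These 3 were low in every library, at most 1.20, 1.65 and 0.683 CPM in turn. With Xist as a covariate 0 of the 20 passed, beside 2.67% of all genes, and without the low-Acta2 libraries 12 did, beside 17.2%. Untreated, 0 of 20 passed in edgeR, beside 0.725% of all genes, and DESeq2 called 2, beside 743 of the 20407 genes compared.

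Over 13505 genes with a mean of at least 1 CPM, the genes whose order over the 20 libraries was most like a member's were the following, named with Spearman's rho of log2 CPM and, in parentheses, rho after each group's mean was removed. Gata6 was most like Armcx1 with 0.98 (0.98), then Nr2f1 with 0.97 (0.95) and Pabpc4 with 0.97 (0.99). Tbx2 was most like Mras with 0.96 (0.82), Emp1 with 0.96 (0.96) and Slc43a3 with 0.96 (0.92). Tbx18 was followed by Tmem268 with 0.95 (0.90), Kctd21 and St13, and Wt1 by Pawr with 0.95 (0.87), Elmo2 and Pbx3. Pawr encodes a partner protein of WT1, and its level ran from 37.3 to 177 CPM. The likeness was weaker for Tbx3 with Limk1 at 0.92 (0.92), Rgs16 and Mllt1, for Foxd1 with Aff3 at 0.90 (0.88), Kctd17 and Pbx3, for Foxl1 with Ldb3 at 0.90 (0.87), Nkx6-1 and Inf2, and for Osr1 with Rbpms at 0.86 (0.71), Icam1 and Lacc1. Gata4 was nearest to Plscr4 at 0.94 (0.92), Ifi27 and Ndn, and Tcf21 to Tuba1a at 0.92 (0.86), Angptl1 and Fbln5, and both members had few counts, at most 23 and 56 in a library. Only 7 of these 30 genes were also among the nearest 3 by Pearson's r, so the names depend on the measure.

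The nearest compared genes on the chromosome mostly did not share a member's pattern. Of 20 neighbours, Wt1os and Foxc2 were the most like their member, at rho 0.89 and 0.85. The noncoding RNA 2610027K06Rik, 328 bases from Tbx2, had at most 0.465 CPM and rho 0.79, and Eya4, a transcriptional cofactor gene 282789 bases from Tcf21, had between 16.6 and 113 CPM and rho 0.74. The protein-coding neighbours of Gata6 were unlike it, with rho -0.18 for Mib1 and -0.84 for Rbbp8. These distances and names come from GENCODE release M21, which is not the release used for counting.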

How the data were processed

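RNA of 20 libraries of renal myofibroblasts, 5 in each of 4 groups of genotype and treatment, was measured by poly-A RNA-seq. The authors aligned paired reads to GRCm38 with STAR, counted them on exons with featureCounts, and deposited whole-number counts for 51826 genes without normalization. Groups and replicate numbers came from the sample labels.

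The 20407 genes that reached 5 counts in 5 or more libraries were fitted in edgeR 4.0.16 (R 4.3.3) with TMM normalization and 4 group means. Contrasts were tested with glmQLFTest and adjusted by Benjamini–Hochberg over all genes compared, at 0.05. CPM use the effective library size, log2 CPM a pseudocount of 0.5, and the floor for a gene without counts was set at 3 counts, for counting error only. No pair of libraries was identical. The procedure was tested on simulated data. Alternatives were DESeq2 1.42.0, its size factors, other filters, a block for the replicate number, a covariate for log2 CPM of Xist, and each library left out. Leaving out pairs of libraries and removing group means were chosen after seeing the data.

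The members and gene lists were chosen with earlier results of these data known. The genes named are the members, their 3 most like genes, their nearest compared neighbours, up to 4 genes per list and contrast with the smallest adjusted P and a group mean of at least 1 CPM, close relatives, and Wwp2, Xist and 4 Y-linked genes, and some genes that this rule or the marker lists would name are not reported here. Positions, names and exon lengths came from GENCODE M21, and promoters from RefSeq on GRCm38.p6, where 3 of 10 members matched.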

Additional observations from a re-analysis of the deposited data

Results flagged for a closer look

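In 9 of 40 sets of 1 member and 1 group, 1 library lay farther from the other 4 than Dixon's test allows, where chance flags about 1 in 20 independent groups. The members were chosen on these values and 7 of the 9 came from the low-Acta2 libraries of WWP2-/- cells, so the sets are not independent and their number is not set against chance. Untreated WWP2-/- replicate 3 stood above its group for Tbx3 (42.0 CPM), Tbx18 (28.9 CPM) and Gata6 (40.4 CPM). TGFb1 WWP2-/- replicate 1 stood above its group for the same 3 genes, at 45.7, 27.9 and 38.1 CPM, and for Tbx2, at 3.15 CPM. In untreated WT cells, replicate 4, which had no Xist, was low for Tbx2 at 0.497 CPM. In TGFb1-treated WT cells, replicate 4 was high for Tcf21 at 1.13 CPM.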

How the results depend on the processing

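The counts of genes called depended on the libraries used, and 11 recomputed log2 fold changes of members turned sign by more than the SD between libraries, while 59 moved by more than that SD without turning and 1370 moved by less, some of them across 0. The causes of these shifts were not tested beyond what the settings remove. Precision is limited by 5 libraries per group and, for Gata4 and Tcf21, by few counts. Of the recomputed counts, 131 moved by more than 1.5 times and 481 did not.

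All 20 libraries gave 1238 genes with TGFb1 and 148 untreated between genotypes. DESeq2 called 2672 and 743 genes, 27 for TGFb1 in WT cells, 49 in WWP2-/- cells and 10 for the interaction, with 4 members with TGFb1, 1 member for the interaction, 13 and 4 related factors and 2 retinoic acid genes untreated. With DESeq2's size factors 1 member passed with TGFb1. With Xist as a covariate 544 and 83 genes passed, 1 gene for TGFb1 in WT cells, 5 related factors and 0 retinoic acid genes. Without a filter there were 790 genes, 1 member and 3 retinoic acid genes with TGFb1, and with 10 counts in every library 4 related factors and 4 retinoic acid genes.

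Without the low-Acta2 libraries 3480 and 271 genes passed, 4 members, 24 and 3 related factors, and 12 and 1 retinoic acid genes. Without the WT libraries lacking Xist these were 3322 and 1136 genes, 4 members, 18 and 4 related factors, and 2 retinoic acid genes untreated. Without both pairs they were 6487 and 2909 genes, 7 and 5 members, 34 and 20 related factors, and 13 and 8 retinoic acid genes, with 132 genes and 1 retinoic acid gene for TGFb1 in WWP2-/- cells and, for the interaction, 197 genes, 1 member, 2 related factors and 1 retinoic acid gene.

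Leaving out 1 library gave 453 to 2730 genes, 1 to 4 members, 4 to 16 related factors and 1 to 9 retinoic acid genes with TGFb1. Untreated it gave 1 to 743 genes, 0 to 1 member, 0 to 2 related factors and 0 to 1 retinoic acid gene. For TGFb1 in WWP2-/- cells it gave 0 to 63 genes, the 63 without untreated replicate 3. The highest counts came without TGFb1 WT replicate 3 (2730 genes) and untreated WT replicate 4 (743 genes), and 2100 genes passed with TGFb1 without TGFb1 WWP2-/- replicate 1. The lowest were 453 without TGFb1 WT replicate 2 and 1 without untreated WT replicates 3 or 5 or untreated WWP2-/- replicates 1, 4 or 5.

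With the replicate number as a replicate block, 670 genes, 1 member, 5 related factors and 3 retinoic acid genes passed with TGFb1, and 1 gene and 0 members untreated. The deviations of same-numbered libraries did not correlate above 0.1 in every pair, so the main fit had no block. They did so in some pairs, and these values cannot show whether same-numbered libraries share an animal or a batch. The correlations lay between -0.54 and 0.47 in WT and -0.22 and 0.32 in WWP2-/- cells across treatment, and between -0.01 and 0.46 untreated and -0.49 and 0.13 with TGFb1 across genotype.

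The log2 fold changes that turned sign by more than this SD were those of Gata6 with TGFb1 (0.50 with Xist as a covariate), of Tbx18 (-0.60 without both pairs), of Tbx3 with TGFb1 (-0.36 without the low-Acta2 libraries, -0.66 without both pairs and, with 1 library left out, -0.38 to 1.89, the lowest without TGFb1 WWP2-/- replicate 1), of the interaction for Tbx3 (-2.35 to 1.0 with 1 library left out, the highest without untreated WWP2-/- replicate 3) and of Gata4 for TGFb1 in WWP2-/- cells (from -0.14 to 0.026 with Xist as a covariate, and -0.96 to 0.30 with 1 library left out). The SD is that of log2(CPM + 0.5), which is small for the few counts of Gata4, and its shifts stayed within the fit's SE of 0.94. Members on at 1 CPM were within 1.5 times at every level tried.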
